A study of Mus musculus with 10 samples.

Results

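The proteasome genes examined here were the constitutive ones: all probesets whose platform annotation gives exactly 1 gene symbol beginning with Psma to Psmg and a digit, without the interferon-induced Psmb8, Psmb9, Psmb10, Psme1 and Psme2. This choice uses names only and took 81 of 22626 probesets, and 44 of 12393 genes. A pair of the symbols, Psmc3ip (a meiotic recombination factor named for binding Psmc3) and Psme3ip1 (a protein that binds the activator PA28 gamma), are not proteasome subunits and are given apart. The other 79 probesets belong to 42 genes. The tissue was the inguinal mammary gland of QSi5 mice, an inbred strain selected for fecundity, and of CBA mice (CBA/CaH), an inbred strain with no such selection. Glands were taken at day 9 of the first lactation, when weaning was forced, from 5 QSi5 mice and 5 CBA mice. Total RNA of each gland was hybridised to 1 Affymetrix array, MOE430A 2.0 for QSi5 1, QSi5 2, CBA 2 and CBA 3, and MOE430 2.0 for the other mice, so that each strain had both chip types in the same numbers. This split is that of the sample records, whereas the study's methods name the MOE430A 2.0 chip alone.

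The 26S proteasome degrades proteins that have been tagged with ubiquitin. Its 20S core is a barrel of outer alpha rings and inner beta rings, and the beta subunits encoded by Psmb5, Psmb6 and Psmb7 carry the proteolytic sites. A 19S cap on the barrel binds and deubiquitinates the substrate and threads it into the core with a ring of ATPases encoded by Psmc1 to Psmc6. Other caps, PA28 gamma (Psme3) and PA200 (Psme4), can replace it, and dedicated chaperones assemble core and cap. In the lactating gland the secretory epithelium makes milk protein at a high rate, and proteasomes remove secretory proteins that fail to fold.

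Values are log2 intensities, so a difference of 1 is 2-fold, and all differences are QSi5 minus CBA. A probeset was tested where the mean of either strain exceeded 20 on the unlogged scale. This was met by 60 of the 79 probesets, covering 40 genes, while Psmd10 and the testis subunit gene Psma8 had no probeset above it. Their mean log2 intensities were 4.17 and 2.81. Calls were made with limma at a Benjamini-Hochberg adjusted p under 0.05 over all 11412 tested probesets. Levels of different probesets are not set against each other, since probes differ in brightness.

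Before the strains are compared, 2 arrays need to be named. CBA 3 had the widest gap between the 3′ and 5′ control probesets, which is a measure of RNA integrity and labelling length. The gap was 3.28 for Gapdh and 4.0 for beta-actin in CBA 3, against 1.11 to 2.28 and 1.63 to 3.23 in the other mice. QSi5 4 stood apart for 8 probesets of leukocyte marker genes, whose median lay 2.77 above the 10-mouse mean, with the next mouse, CBA 3, at 0.07. Milk protein genes are the defining transcripts of the secretory epithelium. Their mean log2 intensities were 13.4 to 14.2 on the brightest probeset of each of the 8 genes examined. On these probesets 0 were called between the strains and 3 were below 0. Lalba differed by 0.40, with strains without overlap and an unadjusted limma p of 0.0034 (adjusted p = 0.0845). Dimmer probesets of Csn1s2a (0.94) and Csn3 (0.97) also had an unadjusted limma p under 0.05. Of the adipocyte, myoepithelial, endothelial and leukocyte marker genes tested (5, 6, 3 and 6), 0 were called between the strains, beside 2.94% of all tested probesets. Fabp4 of the adipocyte genes (-0.73 and -0.85 on its probesets) and Cdh5 of the endothelial genes (-0.32, strains without overlap) had an unadjusted limma p under 0.05. Below 0 were 3 of 5 adipocyte, 4 of 6 myoepithelial, 3 of 3 endothelial and 0 of 6 leukocyte genes, beside 49.8% of all tested probesets.

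Of the 60 probesets of proteasome genes, 0 were called different between QSi5 and CBA, where 2.94% of all tested probesets were called. At an unadjusted limma p under 0.05 there were 8 of 60, 3 higher and 5 lower in QSi5, beside 15.1% of all tested probesets. In none of the 60 were the QSi5 and CBA values without overlap, which was the case for 5.14% of all tested probesets. The strain differences ran between -0.48 (Psmc2) and 0.61 (Psmd6), with a median of -0.08 beside 0.00 over all tested probesets. They were below 0 for 43 of 60 (71.7%), against 49.8% of all tested probesets. The 95% confidence interval of the difference lay wholly within a 2-fold change either way for 58 of the 60, and within 0.5 on the log2 scale for 32. Over all 11412 tested probesets these counts were 10575 and 6763. Intervals of Psmc4 (-1.10 to 0.44) and Psmd6 (0.07 to 1.14) reached beyond 2-fold. In RNA of whole glands, fewer cells of a type and less RNA per cell cannot be told apart.

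**Figure D1:**
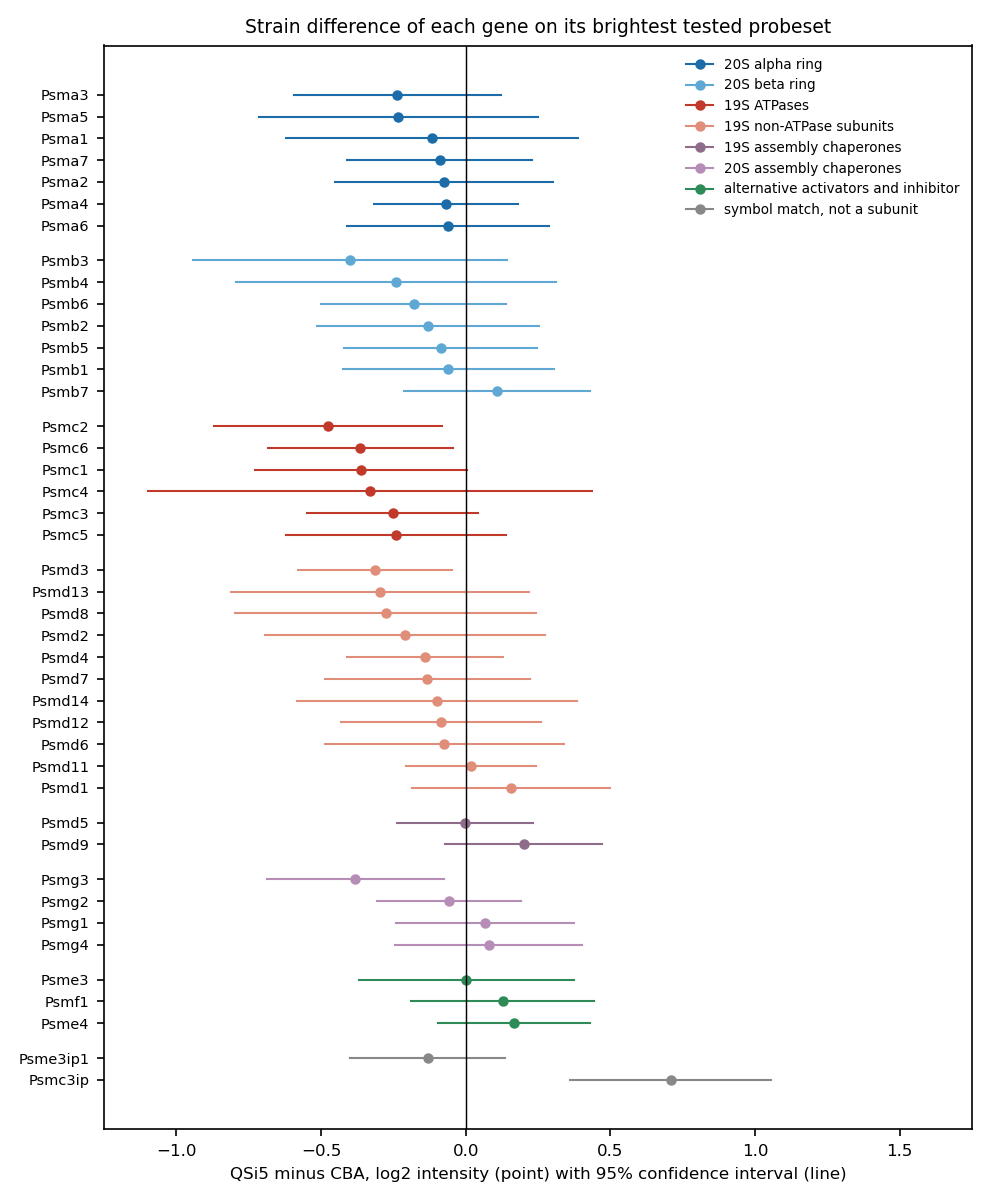
Strain difference (QSi5 minus CBA, log2 intensity, horizontal axis) of each proteasome gene on its brightest tested probeset, with the 95% confidence interval from limma, ordered by sub-complex, n = 5 mice per strain. All 6 ATPase genes (red) lie below 0, whereas the alternative activators and the inhibitor (green) lie at or above 0, and among all genes drawn Psmc3ip alone passed the adjusted threshold.

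In the 20S alpha ring, whose Psma subunits gate the entry to the barrel, all 7 genes were tested on 10 probesets. The median difference was -0.08, all 10 were below 0, and 0 had an unadjusted p under 0.05. Psma3 had the largest difference of a brightest probeset, at -0.24 (SE 0.16, adjusted p = 0.559), with 9.01 ± 0.26 in QSi5 and 9.25 ± 0.30 in CBA (SD, n = 5 each). Its value was 9.74 in CBA 3, the highest of the 10 mice. Psma5 differed by -0.23 on its brighter probeset and by -0.0014 on the other, and Psma1 by -0.12 (SE 0.23). Without CBA 3 the differences were -0.11 for Psma3, -0.0074 for Psma5 and 0.07 for Psma1. The uniform sign of the alpha ring did not hold when single mice were left out. Without CBA 3, 5 of the 10 alpha probesets were below 0 and the median was -0.0019, and without QSi5 2 these were 6 of 10 and -0.01. Without CBA 1 or without CBA 4, 8 of 10 were below 0, and with array weights 5 of 10. On the MOE430 2.0 arrays alone, which include neither CBA 3 nor QSi5 2, the median was 0.0049. A second quantile normalization gave 6 of 10 below 0 and a median of -0.0077.

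The 7 constitutive genes of the beta ring were also all tested on 10 probesets, with a median of -0.11, 7 below 0 and 0 at an unadjusted p under 0.05. The median was -0.02 without CBA 3 and -0.0092 without QSi5 2, with 5 of 10 below 0 in each case, and 0.0067 on the MOE430 2.0 arrays alone. Psmb5, which encodes the chymotrypsin-like site, had 7.88, 7.33, 7.86, 7.72 and 7.79 in the QSi5 mice (1 to 5 in order), against 7.57, 7.51, 8.20, 7.95 and 7.78 in the CBA mice. QSi5 2 was the lowest mouse and CBA 3 the highest, the strains overlapped, and the difference was -0.09 (SE 0.15, 95% interval -0.42 to 0.25, adjusted p = 0.846), or 0.01 without CBA 3.

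Psmb6, the caspase-like site, had 8.17, 7.45, 8.13, 8.12 and 8.29 in QSi5, against 8.19, 8.14, 8.32, 8.26 and 8.16 in CBA. All mice but QSi5 2 lay within a narrow band, and this mouse lay far below it. The difference was -0.18 (SE 0.15, adjusted p = 0.625), with a leave-one-out range of -0.24 to -0.03. Psmb7, the trypsin-like site, had 8.98, 8.74, 9.05, 8.75 and 9.06 in QSi5, against 8.80, 8.48, 9.03, 9.19 and 8.53 in CBA. The strains overlapped over most of their range, with a difference of 0.11 (SE 0.15, 95% interval -0.21 to 0.43, adjusted p = 0.794). Of the intervals of the catalytic genes, the bound farthest from 0 was -0.50 (Psmb6).

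Among the structural beta subunits, Psmb3 differed by -0.40 on its brighter probeset (SE 0.25, adjusted p = 0.506) and by 0.17 on the other. The brighter one had 7.82 ± 0.25 in QSi5 and 8.22 ± 0.60 in CBA, and its value in CBA 3 was 9.11. Without that mouse the difference was -0.18. Psmb4 differed by -0.24 and -0.18 on its probesets (adjusted p = 0.716 and 0.562), and was also highest in CBA 3 on both, at 9.08 and 8.57. Without CBA 3 the difference of the brighter one was -0.05.

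The ATPases of the 19S cap had the median difference farthest from 0 of any sub-complex. All 6 genes were tested on 9 probesets, all 9 were below 0, the median was -0.33, and 3 had an unadjusted p under 0.05, but 0 passed the adjusted threshold. Psmc2 had 8.79, 8.44, 8.20, 8.18 and 8.57 in QSi5, against 8.59, 9.04, 9.46, 8.56 and 8.90 in CBA on its brighter probeset. QSi5 3 and QSi5 4 were the lowest mice and CBA 3 the highest, and only QSi5 1 and QSi5 5 reached into the CBA values. The difference was -0.48 (SE 0.18, adjusted p = 0.233). The name of this probeset ends in _x_at, which marks probes that may also match other transcripts. The brighter probesets of Psmb4 and Psmd13 carry the same suffix. Those of the dimmer Psmc6 and the brightest Psme4 probeset end in _s_at, which was left out together with _x_at in an alternative.

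The second probeset of Psmc2 carries neither suffix, and had 7.27, 6.79, 6.97, 6.95 and 7.08 in QSi5, against 7.49, 7.16, 7.60, 7.44 and 7.15 in CBA. Here QSi5 1 alone lay above the lowest CBA mouse. The difference was -0.36 (SE 0.13, adjusted p = 0.189), and within chip types it was -0.36 (MOE430 2.0) and -0.35 (MOE430A 2.0).

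Psmc6 had 6.18, 5.53, 5.71, 5.77 and 5.98 in QSi5, against 6.40, 6.09, 6.47, 6.12 and 5.91 in CBA. QSi5 2 was the lowest mouse and CBA 3 the highest, and QSi5 1 and QSi5 5 reached into the CBA values. The difference was -0.36 (SE 0.15, adjusted p = 0.260), and -0.20 on the dimmer probeset (SE 0.17, adjusted p = 0.639). The means of that dimmer probeset, 4.36 in QSi5 and 4.56 in CBA, lay close to the intensity minimum.

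Psmc1 had 5.10, 4.85, 4.52, 4.59 and 4.91 in QSi5, against 5.13, 4.94, 5.72, 5.11 and 4.88 in CBA. CBA 3 lay well above the other mice, with a difference between the strains of -0.36 (SE 0.17, adjusted p = 0.337), or -0.22 without CBA 3. The remaining ATPases, Psmc3, Psmc4 and Psmc5, differed by -0.33 to -0.13 on 4 probesets.

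The ATPase median was -0.21 without CBA 3, with all 9 probesets still below 0, and ranged from -0.42 to -0.17 over 23 alternatives. It was -0.17 with CBA 3 and QSi5 4 both left out, where 8 of 9 were below 0. The smallest adjusted p of any ATPase probeset lay between 0.091 (chip type as a block) and 0.450 over these alternatives, so that 0 were called in each. By mouse, the median of the 9 ATPase probesets, set against their own 10-mouse means, was 0.13, -0.26, -0.31, -0.25 and -0.03 in QSi5 1 to 5, against 0.07, 0.07, 0.45, 0.09 and -0.07 in CBA 1 to 5. QSi5 2, 3 and 4 lay below every CBA mouse, while QSi5 1 lay above every CBA mouse but CBA 3.

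**Figure D2:**
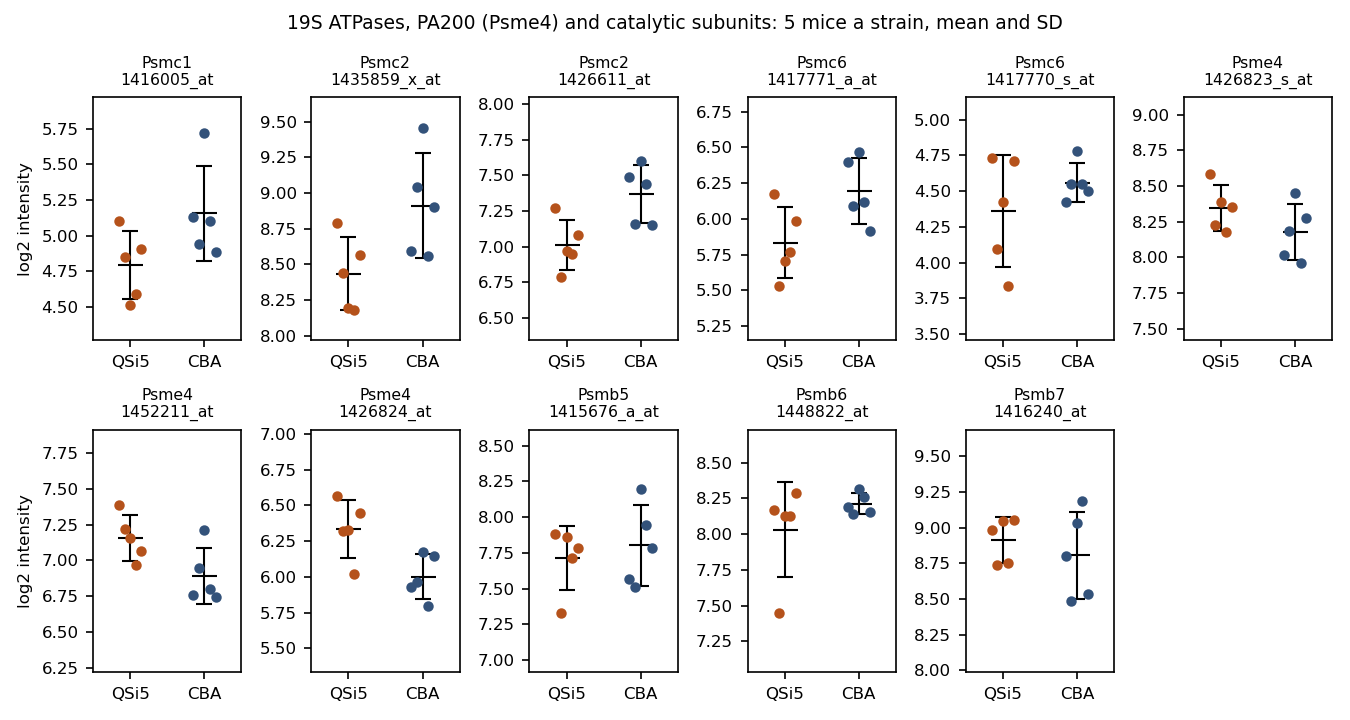
Log2 intensity of each mouse (points, QSi5 left and CBA right, n = 5 each) with the strain mean and SD (bars) for the ATPase genes Psmc1, Psmc2 and Psmc6, for Psme4 and for the catalytic subunits Psmb5, Psmb6 and Psmb7, each panel titled with its gene and probeset and spanning 1.7 log2 units. The strains overlap in every panel, and QSi5 2 is the isolated low point of Psmb6 at 7.45.

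The 11 non-ATPase genes of the 19S cap, which hold the ubiquitin receptors, the deubiquitinase Psmd14 and the scaffold of the lid, were tested on 19 probesets. Of these 13 were below 0, the median was -0.08, and 2 had an unadjusted p under 0.05, 1 in each direction. The median was -0.02 without CBA 3, with 11 of 19 below 0, and 0.05 on the MOE430 2.0 arrays alone, with 8 of 19 below 0. Psmd3, a scaffold subunit of the lid, had 6.91, 6.66, 6.97, 6.86 and 6.90 in QSi5, against 7.20, 7.05, 7.54, 6.92 and 7.16 in CBA. All QSi5 mice except QSi5 3 lay below every CBA mouse, giving a difference of -0.31 (SE 0.12, adjusted p = 0.245), with a leave-one-out range of -0.38 to -0.22.

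In Psmd13 and Psmd8, the other non-ATPase genes with the largest differences on their brightest probesets, 1 or 2 CBA mice lay far above the rest. Psmd13 differed by -0.30 and -0.25 on its probesets (adjusted p = 0.616 and 0.696), with 7.22 and 7.01 in CBA 3 and no more than 6.28 and 6.01 in any other mouse. Without CBA 3 the difference of the brighter one was -0.06. Psmd8 differed by -0.28 (SE 0.24, adjusted p = 0.648), with 7.72 ± 0.16 in QSi5 and 8.0 ± 0.60 in CBA. Its CBA values parted into 8.71 and 8.54 in CBA 1 and CBA 4, and 7.58, 7.35 and 7.80 in CBA 2, 3 and 5. The difference was -0.44 without CBA 3. CBA 1 and CBA 4 also had the narrowest 3′ to 5′ gaps of Gapdh among the CBA mice, at 1.62 and 1.11. With that gap as a covariate the adjusted p of Psmd8 from limma was 0.0659, its smallest over the alternatives. The part of RNA quality in this split was not tested.

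Psmd6, a lid subunit outside the rule for named genes, is given because it had the largest positive difference of all 60 probesets, and was chosen after its values were seen. That probeset had 6.62, 6.22, 5.57, 5.32 and 6.09 in QSi5, against 4.90, 5.76, 5.68, 5.30 and 5.16 in CBA, a difference of 0.61 (SE 0.24, adjusted p = 0.260). QSi5 1, 2 and 5 were above every CBA mouse and QSi5 3 and 4 were among them. The brighter probeset of Psmd6 differed by -0.07 (SE 0.19, adjusted p = 0.901). This gap of 0.68 was the widest between probesets of one gene. Of 16 genes with several tested probesets, 10 had all of them below 0, 5 had probesets on both sides of 0, and Psme4 alone had all above 0.

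The assembly factors had differences in both directions, of which that of Psmg3 was the largest in size. Psmd9 and Psmd5, chaperones of the 19S base, differed by 0.20 (SE 0.12, adjusted p = 0.501) and -0.0023 (SE 0.11, adjusted p = 0.994). Of the chaperones of the 20S core, Psmg3 had 4.69, 4.50, 4.52, 4.58 and 4.51 in QSi5, against 4.60, 4.96, 5.36, 4.69 and 5.10 in CBA. The QSi5 mice were closely grouped at the bottom of the range and the CBA mice were spread above them, overlapping at QSi5 1, CBA 1 and CBA 4. The difference was -0.38 (SE 0.14, adjusted p = 0.215). The values of Psmg3 lay close to the intensity minimum. Psmg1 and Psmg4 differed by 0.07 and 0.08 (adjusted p = 0.876 and 0.857).

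The alternative activators and the inhibitor of the core were the one functional group with no probeset below 0 (0 of 5, median 0.17). Psme4 encodes PA200, a large monomeric cap of the 20S core that works without ATP. On its brightest probeset it had 8.58, 8.22, 8.39, 8.18 and 8.35 in QSi5, against 8.02, 8.19, 8.45, 7.96 and 8.28 in CBA. CBA 3 was the only CBA mouse to exceed the QSi5 mean on it, and the difference was 0.17 (SE 0.12, adjusted p = 0.577).

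On the second Psme4 probeset the values were 7.39, 7.22, 7.16, 6.97 and 7.06 in QSi5, against 6.76, 6.95, 7.21, 6.80 and 6.74 in CBA, a difference of 0.27 (SE 0.12, adjusted p = 0.320). On the third they were 6.57, 6.32, 6.33, 6.02 and 6.45 in QSi5, against 5.93, 5.96, 6.17, 5.80 and 6.14 in CBA, a difference of 0.34 (SE 0.12, adjusted p = 0.206). On the second probeset CBA 3 was the only CBA mouse to reach the QSi5 values, and on the third every QSi5 mouse except QSi5 4 lay above every CBA mouse. The 3 probesets are annotated to the same gene, were read in the same 10 mice and are not independent of each other.

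Psme3, the subunit of PA28 gamma, differed by 0.0022 (SE 0.17, 95% interval -0.37 to 0.37, adjusted p = 0.995), and Psmf1, which encodes the inhibitor PI31, by 0.13 (SE 0.15, adjusted p = 0.737). The median of the group stayed above 0 in all 23 alternatives, between 0.04 and 0.28, while 1 or 2 of its probesets were below 0 in some of them (1 of 5 with median centring and 2 of 5 on the MOE430 2.0 arrays alone).

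Proteasome genes varied among mice of a strain. The SD within strains had a median of 0.25 over the 60 probesets, beside 0.22 over all tested probesets, and the size of the strain difference had a median of 0.15, beside 0.14. Taken against each probeset's own 10-mouse mean, the median of the 60 was 0.12, -0.26, -0.03, -0.09 and 0.08 in QSi5 1 to 5, against 0.02, -0.05, 0.30, 0.07 and -0.09 in CBA 1 to 5. The lowest mouse was thus a QSi5 and the highest a CBA mouse, and the other 8 interleaved. Over all tested probesets the same medians lay between -0.04 and 0.02.

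CBA 3 was the highest mouse for 33 of the 60 probesets (55%), while it was highest for 19.9% of all tested probesets. QSi5 2 was the lowest mouse for 23 of 60 (38.3%), beside 15.7% of all tested probesets. In QSi5 1, on the other hand, 48 of 60 were above their own mean, as many as in CBA 3. QSi5 1, QSi5 2, CBA 2 and CBA 3 were on the MOE430A 2.0 chip. With strain in the fit, 0 of the 60 differed between the chip types (limma, adjusted p under 0.05), where 0.526% of all tested probesets did.

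**Figure D3:**
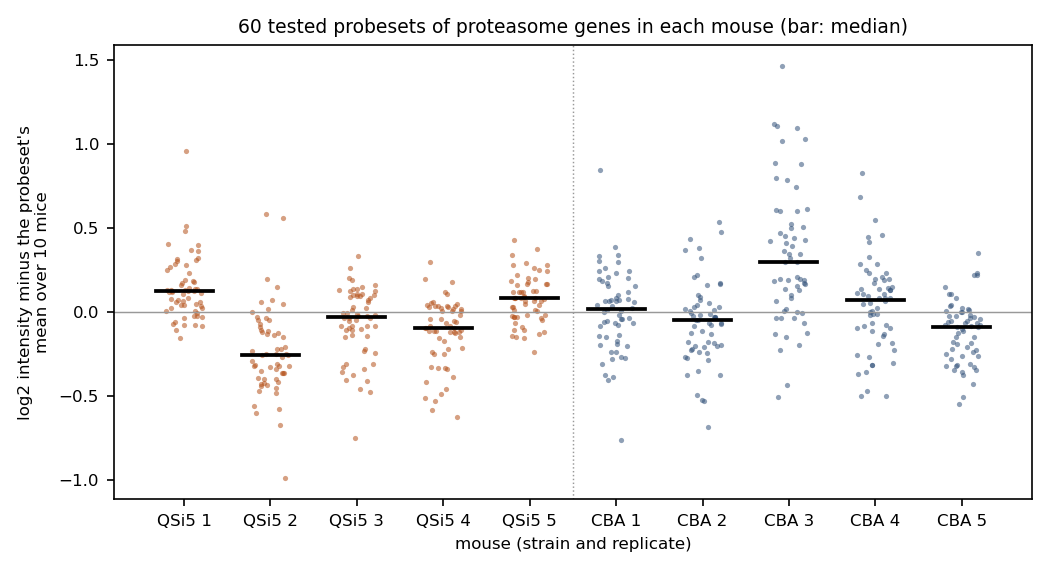
Deviation of each of the 60 tested proteasome probesets from its mean over 10 mice (log2, vertical axis) in each mouse, QSi5 left and CBA right, with the median of each mouse as a bar. QSi5 2 has the lowest median (-0.26) and CBA 3 the highest (0.30), with points of CBA 3 above 1.

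The median difference of the 60 probesets was nearer to 0 without either of those mice. It was -0.01 without CBA 3, with 35 of 60 below 0, and -0.03 without QSi5 2. On the 6 MOE430 2.0 arrays it was -0.0022, and on the 4 MOE430A 2.0 arrays -0.19, and with CBA 3 and QSi5 4 left out it was -0.0029. The count of called probesets of proteasome genes was 0 in each of these settings.

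Some other measures of the same mice were also high in CBA 3. The immunoproteasome genes, which replace catalytic and cap subunits under interferon, had a median deviation of 1.70 in CBA 3, of 0.63 in QSi5 4 and of no more than -0.01 in the other mice. Psmb8 had 6.28, 5.88, 5.99, 7.08 and 6.08 in QSi5, against 5.61, 5.51, 8.08, 6.0 and 5.67 in CBA. Psmb9 was 8.03 in CBA 3 and 6.07 in QSi5 4, with 4.87 to 5.64 in the others. The leukocyte markers had a median deviation of 0.07 in CBA 3, where 5 of 8 probesets lay above their own 10-mouse mean, and of 2.77 in QSi5 4, where all 8 did. Lyz2, the lysozyme of macrophages and neutrophils, had 6.37, 5.73, 6.40, 8.72 and 5.88 in QSi5, against 5.49, 5.38, 7.33, 6.08 and 6.01 in CBA. Ptprc, the pan-leukocyte marker CD45, had 4.83, 4.13, 4.29, 8.10 and 4.78 in QSi5, against 4.27, 4.12, 5.56, 4.13 and 3.77 in CBA. In both genes QSi5 4 was the highest mouse and CBA 3 the next. The other 3 of the 8 probesets lay below their own mean in CBA 3. Cd3e was lowest there of all mice, at 6.54 beside a mean of 6.79. The brighter Coro1a probeset had 4.56 beside 4.70, and the dimmer Laptm5 probeset 5.73 beside 5.74.

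The 3′ to 5′ gap of Gapdh was 1.58, 1.84, 1.56, 1.52 and 1.73 in QSi5 1 to 5, against 1.62, 2.28, 3.28, 1.11 and 2.23 in CBA 1 to 5. QSi5 2, the mouse with the lowest proteasome values, had the widest gap of the QSi5 mice for Gapdh and also for beta-actin, at 2.56 beside 1.98 to 2.24 in the other QSi5 mice, while CBA 2, 3 and 5 had wider gaps for both. With the Gapdh gap as a covariate the median difference of the 60 probesets was -0.05, that of the ATPases was -0.24, and 0 were called. The part of RNA quality, of immune cells or immune genes and of the chip in the values of CBA 3 and QSi5 2 was not tested.

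**Figure D4:**
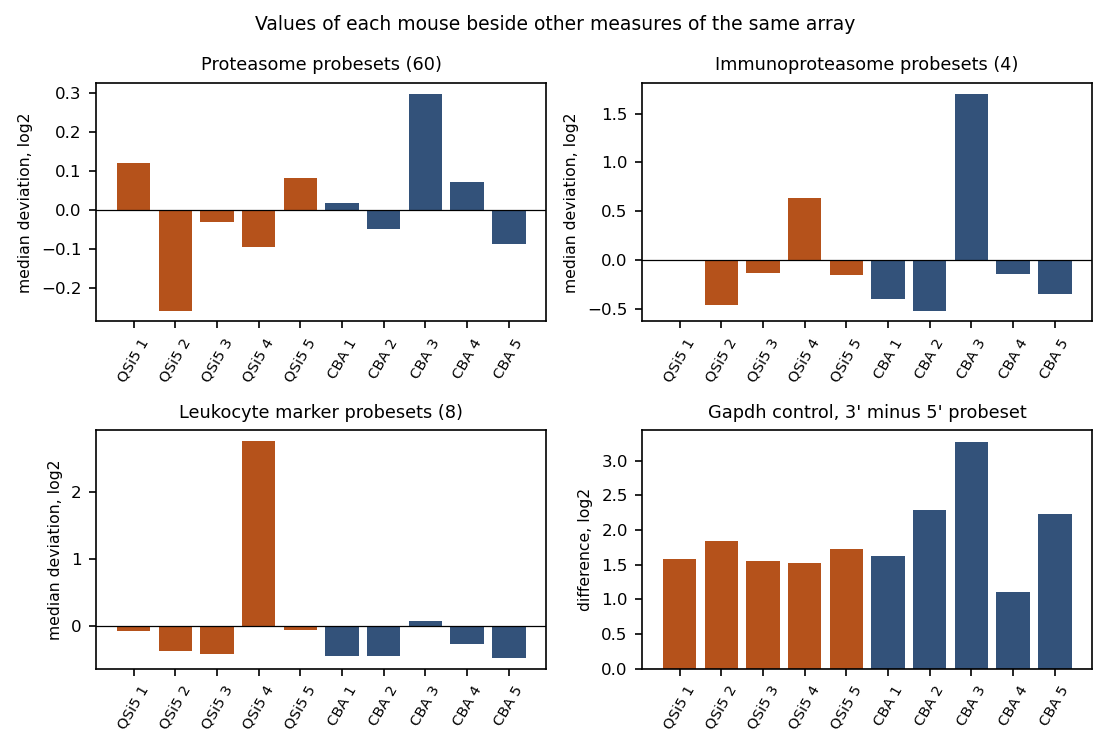
For each mouse (QSi5 left, CBA right), the median deviation from the 10-mouse mean (log2) of 60 proteasome, 4 immunoproteasome and 8 leukocyte marker probesets, and the difference between the 3′ and 5′ control probesets of Gapdh (log2). CBA 3 is the highest mouse in every panel but that of the leukocyte markers, where QSi5 4 stands apart at 2.77.

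The one call among the 62 tested probesets that the symbols took was Psmc3ip, not a subunit of the proteasome. It had 6.53, 6.18, 5.92, 5.81 and 5.56 in QSi5, against 5.24, 5.31, 5.22, 5.46 and 5.23 in CBA. The strains did not overlap, the CBA mice were tightly grouped (SD 0.10) and the QSi5 mice spread out above them (SD 0.37). Psmc3ip was higher in QSi5 by 0.71 (SE 0.16, 1.63-fold, adjusted p = 0.0334 from limma). The direction was the same on both chip types, at 0.46 on MOE430 2.0 and 1.09 on MOE430A 2.0, but the adjusted p was above 0.05 in 12 of 23 alternatives, with a range of 0.0153 to 0.236. Psme3ip1 differed by -0.13 (SE 0.12, adjusted p = 0.675).

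Genes that deliver substrates to the proteasome or control its genes were read from a list of 37 symbols, older synonyms included, that holds ubiquitin genes, E1 enzymes, shuttle factors, the Vcp segregase with its partners, deubiquitinases and transcription factors. Of the 37 symbols, 23 had a probeset annotated with exactly 1 symbol and 22 were tested, with no ubiquitin gene and no E1 enzyme among them. Probesets annotated with several symbols were not read, so a gene missing here may still be on the arrays. Of the 22, each on its brightest tested probeset, 0 were called, beside 2.94% of all tested probesets. Below 0 were 18 of 22, beside 49.8%, and the median was -0.13, beside 0.00. By mouse, the median deviation of the 34 probesets of this list was 0.05, -0.14, -0.09, -0.06 and 0.02 in QSi5 1 to 5. In CBA 1 to 5 it was 0.12, -0.0047, 0.18, -0.03 and -0.05. The smallest p-values were those of Txnl1, a thioredoxin-like protein bound to the 19S cap, at -0.53 (SE 0.22, adjusted p = 0.267, with -0.39 and -0.23 on its other probesets) and Vcp, the ATPase that extracts ubiquitinated proteins from membranes and complexes, at -0.51 (SE 0.21, adjusted p = 0.270).

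Vcp had 8.44, 8.09, 8.32, 7.99 and 8.56 in QSi5, against 8.78, 9.15, 9.26, 8.05 and 8.71 in CBA. CBA 4 fell among the QSi5 mice and the other CBA mice lay above all of them. Without CBA 4 Vcp was called, but this omission removes the only CBA mouse that overlapped QSi5. The call is therefore no separate evidence of a difference. Ufd1, a substrate adaptor of Vcp, differed by -0.32 (SE 0.14, adjusted p = 0.321) and by 0.03 on its other probeset. Nfe2l3, a factor related to Nfe2l1, differed by -0.48 (SE 0.27, adjusted p = 0.448) and by 0.05 on its other probeset. Nfe2l1 itself, named outside the rule because it is the main activator of proteasome genes, differed by 0.17 (SE 0.13, adjusted p = 0.601).

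Many proteasome genes in mammals are activated through the antioxidant response element, which Nfe2l1 binds when proteasome activity is low. Its core, TGACNNNGC on either strand, was searched in RefSeq promoters of GRCm38.p6, each running from 250 bases before to 50 bases after a gene's start. Entries were found for 34 of 42 genes (36 entries), with none for Psma8, Psmb1, Psmb2, Psmb7, Psmc3, Psmd3, Psmd7 and Psmg2. The core was present in 6 of 36 (16.7%), beside 12.4% of all 32851 promoters, and the genes were Psmb5, Psmb6, Psmc6, Psmd9, Psmd12 and Psme4. The motif CCAAT, on either strand, was in 12 of 36 (33.3%), beside 37.4% of all.

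The promoters of 4 of the 6 genes are shown, since they belong to catalytic subunits, to an ATPase and to PA200, which lay on different sides of 0 in the strain comparison. Capitals mark the match, and each sequence is read 5′ to 3′ on the strand of its gene. The match begins 47 bases before the start in Psmb5 (chr14:54617946-54618245, minus strand), 9 before in Psmb6 (chr11:70525107-70525406, plus strand), 227 before in Psmc6 (chr14:45329574-45329873, plus strand) and 7 before in Psme4 (chr11:30771525-30771824, plus strand).
Psmb5: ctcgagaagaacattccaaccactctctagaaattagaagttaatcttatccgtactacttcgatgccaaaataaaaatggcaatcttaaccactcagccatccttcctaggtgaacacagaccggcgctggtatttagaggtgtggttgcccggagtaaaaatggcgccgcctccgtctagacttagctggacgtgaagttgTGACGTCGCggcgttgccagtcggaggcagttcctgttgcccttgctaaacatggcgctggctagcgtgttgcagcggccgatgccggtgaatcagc
Psmb6: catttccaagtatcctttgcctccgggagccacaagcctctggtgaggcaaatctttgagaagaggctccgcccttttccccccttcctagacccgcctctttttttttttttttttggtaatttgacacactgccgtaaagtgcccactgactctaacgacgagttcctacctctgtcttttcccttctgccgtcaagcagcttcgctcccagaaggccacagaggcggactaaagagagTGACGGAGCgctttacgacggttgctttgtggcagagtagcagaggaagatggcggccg
Psmc6: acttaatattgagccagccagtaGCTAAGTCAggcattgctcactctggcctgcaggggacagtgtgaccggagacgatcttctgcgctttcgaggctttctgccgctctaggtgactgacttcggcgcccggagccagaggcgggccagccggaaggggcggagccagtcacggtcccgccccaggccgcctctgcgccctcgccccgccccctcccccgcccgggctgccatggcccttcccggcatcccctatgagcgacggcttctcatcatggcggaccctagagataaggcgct
Psme4: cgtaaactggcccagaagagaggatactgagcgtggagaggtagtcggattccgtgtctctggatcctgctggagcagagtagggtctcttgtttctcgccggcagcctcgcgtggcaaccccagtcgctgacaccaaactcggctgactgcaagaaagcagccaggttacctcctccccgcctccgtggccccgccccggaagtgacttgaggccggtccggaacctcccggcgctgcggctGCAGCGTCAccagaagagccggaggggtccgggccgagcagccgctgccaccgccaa

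Genes with the same core had strain differences of either sign. Psmb5 (-0.09), Psmb6 (-0.18), Psmc6 (-0.36 and -0.20) and Psmd12 (-0.08) were below 0, while Psmd9 (0.20) and Psme4 (0.17, 0.27 and 0.34) were above it, and 0 of the 6 were called. A match of letters does not show that a factor binds there.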

How the data were processed

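Gland RNA of 5 QSi5 and 5 CBA mice was measured on 1 array per mouse. The deposited values were log2 intensities, which the authors had computed with RMA in the affy package. RMA corrects for background, applies quantile normalization and condenses the probes of a probeset into 1 value, and per the labels both chip types had been normalized together over their 22690 shared probesets. Versions are not given in the sources used here. The tables held 0 columns of other series. With 64 control probesets removed, 22626 remained, of which 20380 had 1 gene symbol in the platform annotation, 691 had several and 1555 are unnamed here. Symbols were checked against RefSeq by Entrez identifier, which matched all 81 probesets examined. Array medians lay between 4.21 and 4.30, and the number of arrays limits the precision.

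The study's filter was used, a mean above 20 (unlogged) in at least 1 strain, with means taken over log2 values, and it left 11412 probesets. Strains were compared in limma (version 3.58.1, R 4.3.3) by lmFit and eBayes with two-sided tests of QSi5 minus CBA, and p-values were adjusted by the Benjamini-Hochberg method over these probesets. In data simulated for this comparison on 11412 probesets, 14 of 50 changes of 0.5, 43 of 50 of 1, 48 of 50 of 2 and 50 of 50 of 3 were recovered, with 8 false calls. The simulated noise was normal and independent between probesets. In the measured data CBA 3 and QSi5 2 were extreme for many proteasome probesets at once, so these counts may not carry over.

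Named genes were those called, the catalytic subunits, and in each sub-complex up to 3 genes with the largest difference on the brightest kept probeset (the highest mean over all mice). For the ubiquitin-proteasome list they were the 4 with the smallest p. The genes and lists were chosen with earlier results of these data known. Alternatives changed 1 choice at a time. They covered the intensity minimum (none or 50), a repeated quantile normalization, centring on array medians, removal of _x_at and _s_at probesets, a replicate block, a variance trend, array weights and the omission of each mouse. Chip type was entered as a block, and each chip was also fitted alone. Omission of QSi5 4 and CBA 3 together, and the Gapdh gap as a covariate, were added after the data were seen.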

Additional observations from a re-analysis of the deposited data

Results flagged for a closer look

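In groups of 5 mice, a value was marked where its gap to the nearest other mouse took more than 0.71 of the whole range of the group. Of 72 groups examined 4 were marked, while chance marks about 1 in 20. QSi5 2 was the lowest QSi5 mouse of Psma5 on its dimmer probeset (6.94, a gap of 0.766 of the range) and of Psmb6 (7.45, a gap of 0.805). CBA 3 was the highest CBA mouse for the median deviation of the immunoproteasome probesets (1.70, a gap of 0.831). QSi5 4 was the highest QSi5 mouse for the median deviation of the leukocyte markers (2.77, a gap of 0.89). Without QSi5 2 the difference of Psmb6 was -0.03.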

How the results depend on the processing

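The count of called probesets of proteasome subunits and regulators was 0 in all 23 alternatives, and the median difference of the 60 stayed below 0. Counts over all probesets were 336 in the main analysis, 65 on the MOE430A 2.0 arrays alone, 146 on the MOE430 2.0 arrays alone, and 215 to 415 with 1 mouse left out, the lowest without QSi5 3. The single call, Psmc3ip, was lost (0 called) on either chip type alone, with array weights, without CBA 3 and QSi5 4, and with the Gapdh gap as covariate, and the count was 0 to 1 with 1 mouse left out. Of the ubiquitin-proteasome genes 0 to 1 were called with 1 mouse left out (Vcp, without CBA 4).

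Replicate numbers were not treated as pairs. Deviations of same-numbered mice correlated at -0.37 to 0.29. These values cannot settle whether the numbers pair the mice, since the mice numbered 1 and those numbered 3 were on different chip types. With a replicate block 260 probesets were called, and 0 of proteasome genes.

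Of 521 results for 23 named genes, 477 kept sign and side of the threshold, 32 turned sign and 12 (all Psmc3ip) lost the call. None of the genes that turned sign was called in any setting. On the MOE430 2.0 arrays alone the differences were 0.0073 (Psmd5), 0.0665 (Psmd13), 0.0151 (Psma1), 0.0247 (Psmb5), -0.027 (Psme3) and -0.0414 (Psmf1). On the MOE430A 2.0 arrays alone Psmd8 was at 0.20. With array weights Psmd5 was at 0.0351 and Psmb5 at 0.0172, and with median centring Psme3 at -0.0093. Without CBA 3 and QSi5 4 they were 0.0449 (Psma1), 0.0267 (Psma5), -0.0321 (Psmg4), 0.0667 (Psmb4) and 0.012 (Psmb5). With the Gapdh covariate they were 0.0205 (Psmd13), -0.0498 (Psmg4), 0.0397 (Psmb4), -0.065 (Psme3) and -0.0208 (Psmf1). Leave-one-out ranges that cross 0 were -0.0475 to 0.0617 (Psmd5), -0.27 to 0.0696 (Psma1), -0.0191 to 0.16 (Psmg1), -0.16 to 0.0126 (Psmb5) and -0.098 to 0.15 (Psme3). The cause was not tested.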
